A study of Mus musculus with 20 samples.

Results

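The 7 genes described here encode the core of MHC class II antigen presentation in the mouse: H2-Aa, H2-Ab1, H2-Eb1, Cd74, H2-DMa, H2-DMb1 and Ciita. They were picked by name as a textbook set, with earlier results of these data known, and each name occurred once among the 45705 genes of the expression table. All 7 were followed over 20 RNA-seq libraries, made from 5 cell populations in each of 4 batches. Per the labels and the methods, the populations were sorted from dissociated periventricular tissue of postnatal day 5 Swiss Webster pups, with litters pooled and both sexes included, by 4 surface antigens: CD133, LeX, CD140a and NG2. They carry the names NSC (neural stem cells), BNAP/GRP1, GRP2/MP3, GRP3 and PFMP (progenitor populations), and no treatment or genotype separates them. No antigen that would exclude leukocytes is named in the sort. A library is called here by its population and batch, so NSC 3 stands for the library labelled NSC in batch 3. The labels number the batches without saying what the libraries of a batch have in common, such as pups or a sort, so p-values measure only the spread between these libraries.

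The NSC, GRP3 and PFMP libraries of batch 3 held low levels of the neural genes that go with their labels. Over 5 oligodendrocyte progenitor genes the summed level was 13.7 RPKM in GRP3 3 and 14.5 in PFMP 3, against 275 to 2897 in the GRP3 and PFMP libraries of the other batches. Over 4 neural stem cell and astroglia genes it was 37 RPKM in NSC 3, against 294 to 898 in the other NSC libraries. Within batch 3 these sums still followed the labels. The oligodendrocyte progenitor sum was 2.72 to 3.56 RPKM in NSC 3, BNAP/GRP1 3 and GRP2/MP3 3. The neural stem cell and astroglia sum was 2.25 to 3.68 RPKM in the progenitor libraries of batch 3. Ependymal genes were abundant in NSC 3, where 4 of them summed to 1062 RPKM, against 1982, 10850 and 3675 in NSC 1, NSC 2 and NSC 4. Lung epithelium genes summed to 919 to 1043 RPKM in all 5 libraries of batch 3, of which Scgb1a1 alone made up 839 to 965. Whether batch 3 came from the labelled tissue is therefore in doubt, and each comparison with batch 3 given here is one between these libraries, not between known cell types of the brain. The population names of batch 3 are used as labels only.

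MHC class II molecules are pairs of an alpha and a beta chain that show peptides from the endosomal pathway to CD4+ T cells. In the endoplasmic reticulum the pair is joined by the invariant chain, and in the endosome the H2-DM pair exchanges the last fragment of that chain for a peptide. Dendritic cells, B cells and many tissue macrophages carry class II constitutively, whereas resting microglia, the macrophages of the brain parenchyma, carry little. The coactivator CIITA binds no DNA itself and acts through the RFX and NF-Y complexes at a shared pair of boxes upstream of class II genes.

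The upstream boxes are shown because they are the sequence feature that class II genes are known to share. The letters GNAAC, a part of the X box that RFX binds, followed by ATTGG, the Y box that NF-Y binds, were searched on both strands with 28 to 35 bases from start to start. The window ran from 250 bases before to 50 after each RefSeq start (GRCm38.p6), and the motifs do not overlap. The letters and spacing were chosen after these promoters had been seen. In the lines below, written 5′ to 3′, capitals mark the GNAAC and ATTGG matches. H2-Aa lies on the minus strand at chr17:34287859-34287912, H2-Eb1 on the plus strand at chr17:34305768-34305820, and 2 further class II genes, H2-Ob at chr17:34238810-34238860 and H2-Eb2 at chr17:34325535-34325587, both on the plus strand, are given for comparison.
H2-Aa: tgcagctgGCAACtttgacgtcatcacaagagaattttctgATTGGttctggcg
H2-Eb1: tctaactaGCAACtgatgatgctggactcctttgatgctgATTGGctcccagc
H2-Ob: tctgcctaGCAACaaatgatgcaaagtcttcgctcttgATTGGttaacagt
H2-Eb2: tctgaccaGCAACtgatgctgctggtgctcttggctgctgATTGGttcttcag
The spacing was 33 bases in H2-Aa, 32 in H2-Eb1 and H2-Eb2, and 30 in H2-Ob. H2-DMb1 and H2-Oa also held the pair, each at 33 bases. The ATTGG started 48 bases before the start of H2-Aa and 59 before that of H2-Eb1. Over all promoters, 442 of 32851 (1.35%) held the pair, and 12289 (37.4%) held ATTGG on either strand. Neither of the 2 H2-DMa promoters in the table held the pair, nor did that of H2-DMb2. A match describes letters, not a site that is bound. H2-Ab1, Cd74 and Ciita had no promoter in the table.

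Of the members, 5 lie together on chromosome 17 (GRCm38). H2-DMa (ENSMUSG00000037649) spans chr17:34119541-34139101, H2-DMb1 (ENSMUSG00000079547) chr17:34153072-34160230, H2-Ab1 (ENSMUSG00000073421) chr17:34257689-34269419 and H2-Eb1 (ENSMUSG00000060586) chr17:34305867-34316674, all on the plus strand. H2-Aa (ENSMUSG00000036594) spans chr17:34282744-34287823 on the minus strand. Ciita (ENSMUSG00000022504) lies at chr16:10480059-10528418 and Cd74 (ENSMUSG00000024610) on chromosome 18. Class II genes are polymorphic, and reads of outbred pups were aligned to the C57BL/6J reference. H2-DMb1 and H2-DMb2, and H2-Eb1 and H2-Eb2, are near copies of each other whose reads could be split between them, so their levels are uncertain to that extent.

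Values are RPKM, reads scaled by gene length and by the size of the library, as deposited. Summed over all genes they came to between 955067 and 2407643 per library. The total read count is not in the table. Relative depths were taken from the commonest ratio, over genes, of each library's values to those of BNAP/GRP1 1. With these depths, the values of H2-Aa, H2-DMa, Cd74 and Ciita fell on whole-number series (within 0.05). BNAP/GRP1 4 had the lowest depth, at 0.0395 on a scale where the other libraries ran from 0.118 to 1.41. Its median RPKM over the genes tested was 10.9, against 0.638 to 3.49 in the other libraries. In the whole-number series a single read stood behind H2-Aa in BNAP/GRP1 2 (0.0651 RPKM) and behind Cd74 in PFMP 2 (0.0524 RPKM), whereas Cd74 in batch 3 rested on 136704 to 297234 reads.

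The alpha and beta chains that form the I-A molecule were abundant in every library of batch 3 and low in the other 15. H2-Aa, the I-A alpha chain, measured 1389 RPKM in NSC 3, where it was lowest, then 1521 (BNAP/GRP1), 1538 (GRP2/MP3), 1524 (GRP3) and 1561 (PFMP). Outside batch 3 its lowest value was 0, in GRP3 1, its median 1.25 and its highest 12.7, in BNAP/GRP1 4. The groups were separated by a wide gap, since the lowest batch 3 library was 109 times the highest other one. H2-Ab1, the I-A beta chain, measured 578, 665, 680, 643 and 658 RPKM in batch 3, in the same order of populations. Elsewhere H2-Ab1 ran from 0.907 through a median of 5.74 to 19.3, the last in BNAP/GRP1 1. Again no library of another batch came near batch 3, where the lowest value was 29.9 times the highest of the others. H2-Eb1, the beta chain of I-E, measured 749, 832, 806, 794 and 833 RPKM in batch 3. In the other batches it ran from 0.263 through 1.77 to 7.18, so the gap was 104 times.

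Cd74, the invariant chain, was the most abundant member in batch 3. Its values were 2010 RPKM in NSC 3 and, in the order given above, 2278, 2240, 2213 and 2245 in the progenitor libraries. Outside batch 3 the lowest value was 0.0524, the median 0.98 and the highest 14.2, in BNAP/GRP1 4. Its gap, 141 times, was wider than that of any other member.

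The peptide editors among the members were separated by less. A further H2-DM beta chain, H2-DMb2, is not a member and measured 72.8 to 87.9 RPKM in batch 3 and at most 10.1 elsewhere. H2-DMa, the H2-DM alpha chain, measured 39.6, 53.6, 49.8, 44.5 and 45.3 RPKM in batch 3, and from 0.573 through 4.82 to 19.2 elsewhere, with the highest value in BNAP/GRP1 2. H2-DMb1, a beta chain of H2-DM, measured 44.7, 44.3, 41.1, 43.9 and 44.5 RPKM in batch 3, and from 0.0897 through 1.73 to 18.5 elsewhere, with the highest value in BNAP/GRP1 1. The groups did not overlap for either gene, but the lowest batch 3 library was only 2.07 times the highest other one for H2-DMa and 2.22 times for H2-DMb1. Ciita, the coactivator known to drive class II transcription, measured 7.62, 8.52, 8.3, 8.33 and 8.12 RPKM in batch 3. Elsewhere it ran from 0.00671 through 0.0685 to 5.64, the last again in BNAP/GRP1 4, where it rested on 101 reads. In that shallow library the 7 members ranked between the 15.6th and 64.6th percentile of the genes tested, so 5.64 RPKM was a low level there. In only 2 libraries outside batch 3 did Ciita reach 1 RPKM, so it entered the test through batch 3.

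**Figure D1:**
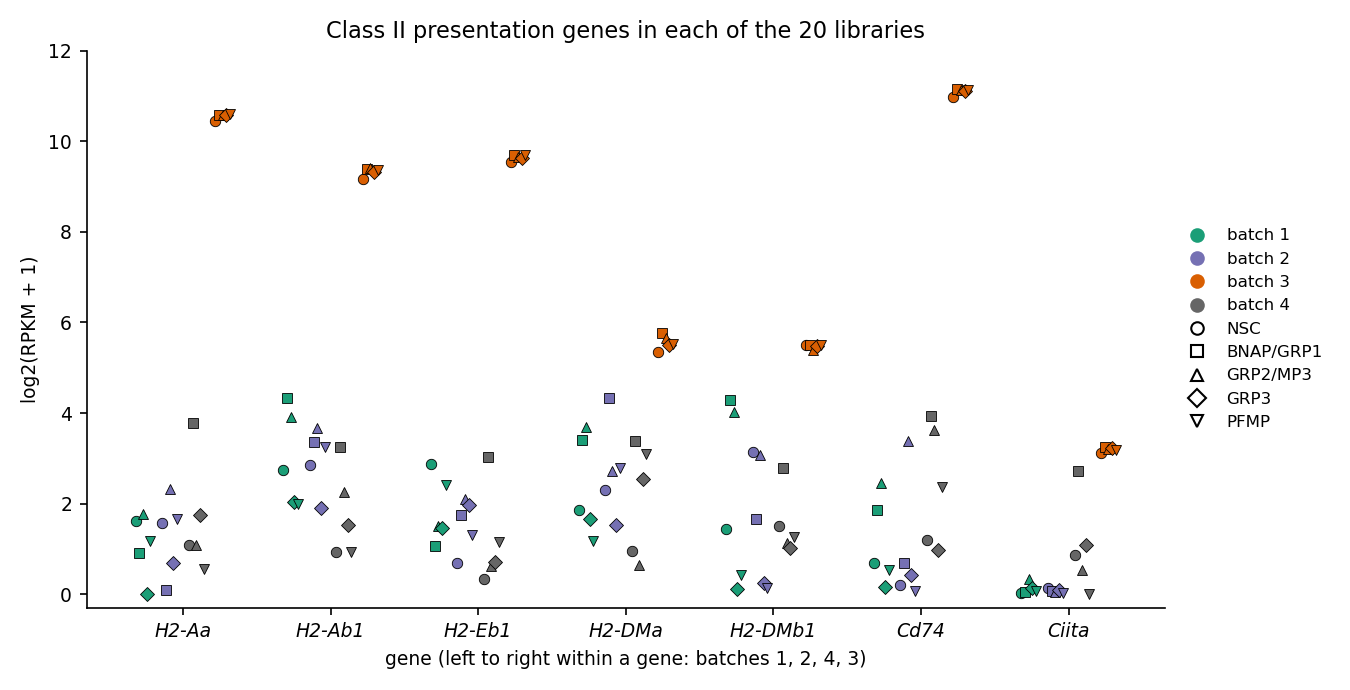
Each point is the level of 1 class II gene in 1 of the 20 libraries, as log2(RPKM + 1) on the vertical axis, with genes along the horizontal axis, colours for batches and shapes for populations. The 5 batch 3 libraries lie above the other 15 for all 7 genes, with the narrowest gap for Ciita, where BNAP/GRP1 4 (5.64 RPKM) is nearest to NSC 3 (7.62 RPKM).

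In every one of the 7 members, every batch 3 library was above every other library, which held for 5.18% of the 27614 genes tested. In 4 of 7, H2-Aa, H2-Ab1, H2-Eb1 and Cd74, the gap exceeded 10 times, against 0.427% of all genes. Mean levels in batch 3 were 1507 ± 67.7 RPKM for H2-Aa, 645 ± 39.9 for H2-Ab1, 803 ± 34.5 for H2-Eb1, 2197 ± 107 for Cd74, 46.5 ± 5.34 for H2-DMa, 43.7 ± 1.47 for H2-DMb1 and 8.18 ± 0.341 for Ciita (SD, n = 5). Against the mean of the other 15 libraries, these were 681 times as high for H2-Aa, 649 for Cd74, 336 for H2-Eb1, 97.1 for H2-Ab1, 14 for Ciita, 10.1 for H2-DMb1 and 7.99 for H2-DMa. The shallow library BNAP/GRP1 4 decided a good part of the value for Ciita, which was 36.5 times as high against the other 14 libraries, and for H2-Aa, which was 1030 times as high. Without it the lowest batch 3 library was 6.75 times the highest other one for Ciita and 349 times for H2-Aa. In bulk libraries, fewer cells of a type and less RNA per cell cannot be told apart.

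Batch 3 was compared with the mean of the other 3 batches by limma on log2(RPKM + 1), with population as a covariate and Benjamini-Hochberg adjustment over all 27614 genes. The 6 members other than Ciita passed an adjusted p of 0.05 as higher in batch 3, where 12.5% of all genes were called higher and 22.6% lower. Ciita had met the filter on low values only through batch 3, so its call was also made with no filter, where it was higher by 2.78 with an adjusted p by limma of 2.95e-05. Cd74 was higher by 9.60 on the log2 scale (SE 0.391, adjusted p = 5.48e-12), and H2-Aa by 9.22 (SE 0.446, adjusted p = 5.49e-11). H2-Eb1 followed with 8.12 and H2-Ab1 with 6.73, both with an adjusted p of 7.14e-11. The difference was smaller for H2-DMb1, at 3.73 (adjusted p = 1.83e-05) and for H2-DMa, at 3.16 (adjusted p = 1.87e-05). With the filter, the adjusted p of Ciita was 3.42e-06. Adding 1 to each value understates the change of low genes such as Ciita. The median of all genes tested was -0.64 in this contrast as deposited and -0.56 after median-of-ratios scaling, so the members stood above a table that was, in the middle, lower in batch 3. With only BNAP/GRP1 and GRP2/MP3 in the fit, 4 of 7 members were called (2.2% of all genes were called higher), and H2-DMa (2.69, adjusted p = 0.0701), H2-DMb1 (2.62, adjusted p = 0.072) and Ciita (2.61, adjusted p = 0.106) were not.

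Within batch 3 the members scarcely varied with the sorted population. The coefficient of variation over the 5 libraries was lowest for H2-DMb1, at 3.36%, and between 4.17% and 6.18% for Ciita, H2-Eb1, H2-Aa, Cd74 and H2-Ab1. It was highest for H2-DMa, at 11.5%. NSC 3 had the lowest value of the 5 for 6 of 7 members, the exception being H2-DMb1. NSC 3 also held a summed RPKM of 1062 over 4 ependymal genes, against 1.25 to 5.02 in the other 4 libraries of the batch, and the part of those transcripts in its lower class II values was not tested.

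The order of the levels within batch 3 was Cd74, H2-Aa, H2-Eb1, H2-Ab1, then H2-DMa and H2-DMb1, then Ciita. Only H2-DMa and H2-DMb1 overlapped as neighbours in that order. Because RNA was amplified from the poly(A) end, a comparison of RPKM between genes carries each gene's own recovery as well as its length.

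BNAP/GRP1 and GRP2/MP3 of batches 1 and 2 are called microglia-rich here. For 9 of 10 homeostatic microglia marker genes, all 4 of these libraries were above all 6 NSC, GRP3 and PFMP libraries of the same batches. This held for 3.1% of all genes. P2ry12, a purinergic receptor of resting microglia, measured 64.7 to 1101 RPKM in them and 0.915 to 1.49 in batch 3. They were not all alike, since Pf4, a marker of border-associated macrophages, reached 2365 RPKM among them and was 55.7 at the lowest. In GRP2/MP3 1 the border-associated macrophage genes summed to 2485 RPKM, above its homeostatic microglia sum of 1381. Over the 4 libraries the homeostatic microglia genes summed to between 455 and 2979 RPKM. GRP2/MP3 4, at 565, was above the lowest of them. The separation of the members from batch 3 and the ratio to pan-myeloid genes are also given with it, as are some member values. Other results that rest on these 4 libraries are given without it. The class II members were far below their batch 3 levels in all 4, but not all were low among the genes of these libraries. H2-Ab1 ranked between the 77.9th and 85.6th percentile of the genes tested, H2-DMa up to the 87.2nd and H2-DMb1 up to the 85.2nd, whereas Ciita ranked between the 12.7th and 27.1st.

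H2-Ab1 was the chain best detected in the microglia-rich libraries, at 19.3 RPKM (BNAP/GRP1 1), 14.1 (GRP2/MP3 1), 9.28 (BNAP/GRP1 2) and 11.7 (GRP2/MP3 2). H2-Aa, its partner chain, measured 0.871, 2.41, 0.0651 and 3.98 RPKM in the same libraries. H2-Eb1 measured 1.1, 1.86, 2.35 and 3.29 RPKM. The alpha chain of I-A was thus listed below its beta chain in each of the 4, while in batch 3 it was above it in each of the 5. The ratio of H2-Aa to H2-Ab1 had a median of 0.108 (range 0.00702 to 0.341, n = 4) in the microglia-rich libraries and 2.37 (2.26 to 2.4, n = 5) in batch 3. For H2-Eb1 over H2-Ab1 the medians were 0.193 and 1.25.

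Cd74 measured 2.61, 4.48, 0.619 and 9.42 RPKM in the microglia-rich libraries, with both GRP2/MP3 libraries above both BNAP/GRP1 libraries. Relative to H2-Ab1 its median was 0.227 there and 3.42 in batch 3. Of the peptide editor chains, H2-DMa and H2-DMb1 went the other way relative to H2-Ab1. H2-DMa measured 9.57, 11.9, 19.2 and 5.57 RPKM, a median of 0.672 relative to H2-Ab1 against 0.0691 in batch 3. H2-DMb1 measured 18.5, 15.2, 2.15 and 7.49 RPKM, a median of 0.801 against 0.0676. H2-DMa and H2-DMb1 were therefore of the same order as H2-Ab1 in these 4 libraries and far below it in batch 3. This does not extend to H2-DMb2, the second H2-DM beta chain, with a mean of 0.869 RPKM in the microglia-rich libraries and 79.5 in batch 3. Ciita measured 0.0309, 0.259, 0.0486 and 0.0283 RPKM, of which the value in GRP2/MP3 1 rested on 41 reads and the others on 14 or fewer. GRP2/MP3 4, outside these medians, was unlike the 4 libraries in part. There Cd74 (11.3 RPKM) was above H2-Ab1 (3.79), as in batch 3, and H2-DMa (0.573) and H2-DMb1 (1.21) were below it. H2-Aa (1.12) was below H2-Ab1, as in the 4 libraries.

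For all 7 members both batch 3 libraries of BNAP/GRP1 and GRP2/MP3 were above all 4 of batches 1 and 2, which held for 17.9% of all genes tested. With GRP2/MP3 4 added to those 4 libraries it was again 7 of 7. The mean of the pair was over 10 times as high for 5 of 7 members, against 5.96% of all genes. It was 835 times as high for H2-Aa, where the microglia-rich mean was 1.83 ± 1.73 RPKM (SD, n = 4), and 528 times for Cd74, from 4.28 ± 3.77. It was 381 times for H2-Eb1, from 2.15 ± 0.916, and 49.5 times for H2-Ab1, from 13.6 ± 4.28. For Ciita it was 91.7 times, from 0.0917 ± 0.112, whereas H2-DMa was 4.47 times as high, from 11.6 ± 5.72, and H2-DMb1 3.95 times, from 10.8 ± 7.39. The order of levels in the microglia-rich libraries was H2-Ab1, H2-DMa, H2-DMb1, Cd74, H2-Eb1, H2-Aa and Ciita, with every pair of neighbours overlapping.

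In batches 1 and 2, H2-Ab1 and Cd74 were higher in the microglia-rich libraries than in the other populations. H2-Ab1 ran from 9.28 to 19.3 RPKM in the 4 microglia-rich libraries and from 2.76 to 8.45 in the 6 NSC, GRP3 and PFMP libraries. Cd74 ran from 0.619 to 9.42 in the former and from 0.0524 to 0.618 in the latter, so that its groups only just failed to meet. The groups overlapped for the other 5 members. This separation held for 2 of 7 members and for 3.1% of all genes.

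To set class II against the amount of myeloid RNA, the summed RPKM of the 7 members was divided by that of 8 genes that myeloid cells share, among them Ptprc, Tyrobp and Spi1. In batch 3 the class II sum ran from 4817 to 5402 RPKM and the pan-myeloid sum from 4728 to 5222. The ratio was between 102% and 107%, with a median of 104%. In the microglia-rich libraries the pan-myeloid sum lay on both sides of that range, from 3900 to 17224 RPKM, while the class II sum ran from 33.7 to 52. In batch 1 the ratio was 0.69% for BNAP/GRP1 and 0.291% for GRP2/MP3, and in batch 2 it was 0.733% and 1.06%, with a median of 0.711%. GRP2/MP3 4 stood at 3.16%, above all 4, and the median was 0.733% with it. The remaining libraries, with less myeloid RNA, ran from 3.33% to 48.1%. The ratio is a description, with no test. With Csf1r, Aif1 and Cd68 in the denominator the medians were 449% and 3.56%, so the size of the ratio depended on the genes chosen while the gap between the groups did not close.

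**Figure D2:**
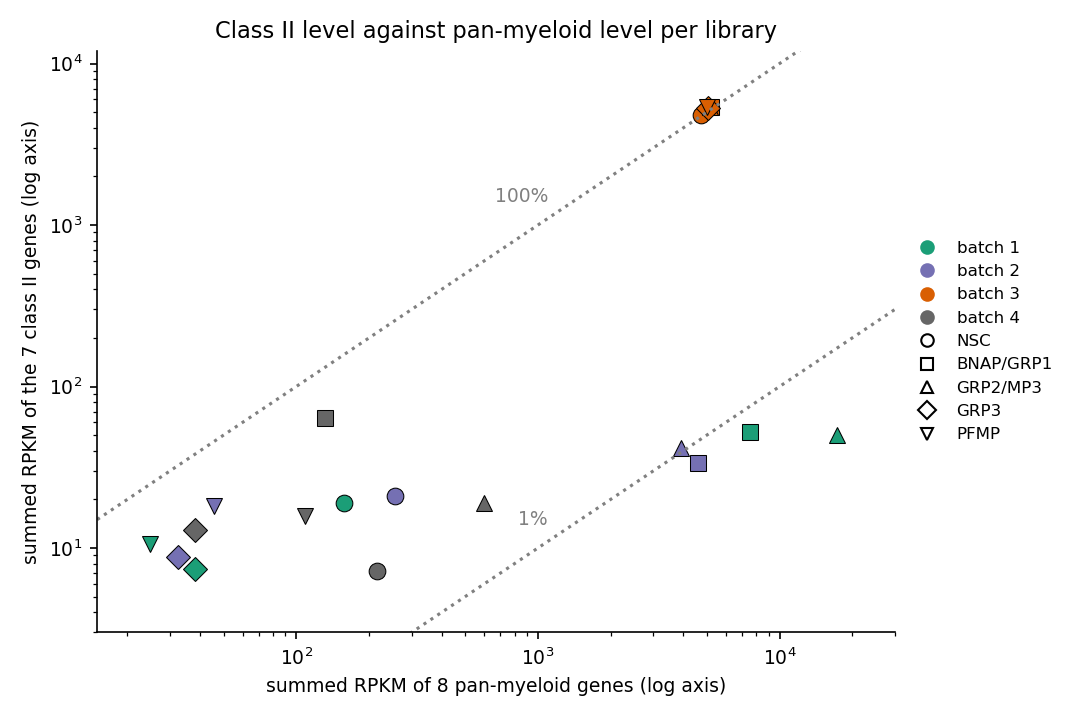
Each point is 1 library, with the summed RPKM of 8 pan-myeloid genes on the horizontal log axis and the summed RPKM of the 7 class II genes on the vertical log axis; dotted lines mark class II at 1% and 100% of pan-myeloid. Batch 3 lies on the 100% line (102 to 107%), and BNAP/GRP1 and GRP2/MP3 of batches 1 and 2 lie near or under the 1% line (0.291 to 1.06%), with pan-myeloid sums of 3900 to 17224 RPKM against 4728 to 5222 in batch 3.

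The progenitor populations were each compared with NSC over all 4 batches, the comparison between populations that the sort allows. None of the 7 members passed an adjusted p of 0.05 by limma in BNAP/GRP1, GRP2/MP3, GRP3 or PFMP, and none had an unadjusted p under 0.05. Over all genes, 0%, 0%, 0.0109% and 0.00362% were called higher and 0.76%, 1.12%, 1.04% and 1.14% lower, in that order. For BNAP/GRP1 the members' log2 differences ran from 0.16 to 1.61, and for GRP2/MP3 from 0.00 to 1.88. They ran from -1.18 to 0.20 for GRP3 and from -1.07 to 0.54 for PFMP. The standard errors ran from 1.01 for Ciita to 2.99 for Cd74. With no batch term they include the distance of batch 3 from the other batches, so this fit could hardly call a member. The largest difference, that of Cd74 in GRP2/MP3 at 1.88, was within its SE, while that of H2-DMa in BNAP/GRP1 was 1.61 with a SE of 1.15.

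The 4 batches pair the populations, and with batch as a replicate block the spread within a population narrowed. Still 0 of 7 members passed in any progenitor, although 3 for BNAP/GRP1 and 1 for GRP2/MP3 had an unadjusted p under 0.05. Over all genes, 0.0652%, 0.174%, 0.275% and 0.185% were then called higher and 2.02%, 2.91%, 2.33% and 2.61% lower in BNAP/GRP1, GRP2/MP3, GRP3 and PFMP. Those in BNAP/GRP1 were H2-DMa (1.61, SE 0.596, adjusted p = 0.218), H2-Ab1 (1.15, SE 0.456, adjusted p = 0.259) and Cd74 (1.14, SE 0.536, adjusted p = 0.341). The one in GRP2/MP3 was Cd74 (1.88, SE 0.536, adjusted p = 0.0674). Within batches, Cd74 was above NSC in GRP2/MP3 by 1.76, 3.18, 0.16 and 2.42 on the log2 scale in batches 1 to 4, and in BNAP/GRP1 by 1.16, 0.50, 0.18 and 2.73. H2-Ab1 was above NSC in GRP2/MP3 by 1.16, 0.80, 0.24 and 1.33, and in BNAP/GRP1 by 1.59, 0.50, 0.20 and 2.32. Both genes were thus higher in 4 of 4 batches in both populations, by least in batch 3, without passing the adjusted threshold. The median difference of all genes from NSC was 0.378 in BNAP/GRP1 and -0.077 in GRP2/MP3, so a positive sign in BNAP/GRP1 was usual. The share of all genes higher in 4 of 4 batches was not computed. The value in BNAP/GRP1 4 comes from the library whose median RPKM was high. With batch 3 left out and batch as a block, again 0 of 7 members passed in any progenitor. Over all genes, 0.214%, 0.503%, 0.525% and 0.398% were then called higher, in the order of populations given above. Cd74 in GRP2/MP3 was 2.45 (SE 0.671, limma adjusted p = 0.0716) in that fit. H2-DMa in BNAP/GRP1 was 2.01 (SE 0.797, limma adjusted p = 0.272).

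The other genes of the pathway separated only partly by role. Of 19 names listed, 16 were in the table and tested, and 10 were called higher and 2 lower in batch 3. The list's median difference was 2.20 on the log2 scale, against -0.64 over all genes. Among those with large differences were further class II chains, but lysosomal genes were called higher as well. H2-DMb2, the second beta chain of H2-DM, measured 72.8 to 87.9 RPKM in batch 3 and at most 10.1 elsewhere (difference 5.48, limma adjusted p = 7.52e-10). H2-Ea-ps, the I-E alpha locus annotated as a pseudogene in the reference strain, measured 106 to 127 RPKM against at most 8.53 (5.79, limma adjusted p = 3.77e-08).

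H2-Oa and H2-Ob form H2-O, a modulator of H2-DM known best from B cells. H2-Ob measured 57 to 68.4 RPKM in batch 3 and 0.0705 to 2.39 in the microglia-rich libraries (difference from all other batches 5.13, limma adjusted p = 2.68e-08). H2-Oa measured 13.2 to 18.6 RPKM against 0.447 to 1.62 (3.27, limma adjusted p = 4.56e-06), with the highest other library at 12.8. H2-Eb2, a second I-E beta chain, measured 2.85 to 3.57 RPKM in batch 3 against 0 to 0.0769 (1.51, limma adjusted p = 0.00176), with the highest other library at 5.42. The ratio of H2-DMb2 to H2-DMb1 was 1.66 to 1.98 in batch 3 and 0.0484 to 0.303 in the microglia-rich libraries, so the more abundant of these 2 near copies differed between the groups.

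The invariant chain protease and the factors that bind the promoter did not separate in this way. Ctss, the cathepsin that trims the invariant chain, measured 2980 to 3341 RPKM in batch 3 and 695 to 9495 in the microglia-rich libraries. It was called higher in batch 3 against all other libraries (5.46, limma adjusted p = 0.000448) but overlapped with the microglia-rich ones. The other lysosomal genes of the list, named after their values were seen, were also called higher. These were Ifi30 (4.70, limma adjusted p = 1.91e-05), Ctsl (2.97, limma adjusted p = 0.00599) and Lgmn (2.88, limma adjusted p = 0.00414). Ctsl and Lgmn overlapped with the microglia-rich libraries. Ifi30 measured 349 to 357 RPKM in the batch 3 pair, above their 92.5 to 337. The RFX and NF-Y genes, named here after their values were seen, differed little and in both directions. Nfya was called higher (0.91, limma adjusted p = 0.0373), Nfyb (-1.19, limma adjusted p = 0.0245) and Rfxap (-0.84, limma adjusted p = 0.0369) lower, and Rfx5, Rfxank and Nfyc were not called. Rfx5 measured 2.53 to 4.1 RPKM in batch 3 and 1.66 to 15.4 in the microglia-rich libraries, and Rfxank 4.75 to 5.82 against 3.12 to 8.7. Over the whole list, the BNAP/GRP1 and GRP2/MP3 libraries of batch 3 were above all 4 microglia-rich libraries for 6 of 16 genes and below for 2, with a median fold of 1.05, where 17.9% of all genes were above and 28.1% below.

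Of the interferon gamma path, which induces Ciita, 6 of 7 genes were called higher in batch 3 and 0 lower, against 12.5% and 22.6% of all genes. The one not called was the ligand, Ifng (-0.20, limma adjusted p = 0.691), at 0 to 1.11 RPKM in batch 3 and 0 to 5.81 elsewhere. Ifngr2, a chain of the receptor, measured 56.7 to 65.3 RPKM in batch 3 and 13.8 to 36.2 in the microglia-rich libraries. Jak1, the kinase bound to the receptor, measured 70.1 to 80.7 against 16 to 23.6. Irf1, a factor that binds the Ciita promoter, measured 66 to 79.5 against 11.9 to 33.1. For 6 of 7 genes of the path the batch 3 pair was above all 4 microglia-rich libraries, with a median fold of 4.02, against 17.9% of all genes.

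Genes of the costimulation list, which includes the inhibitory ligand gene Cd274, were called higher in 4 of 5 cases and lower in 0, against 12.5% and 22.6% of all genes. Cd274, which encodes PD-L1, measured 48.8 to 59.3 RPKM in batch 3 and 0.783 to 2.45 in the microglia-rich libraries. Cd40 measured 39.8 to 43.2 against 0.202 to 5.28. Cd86 overlapped, at 86.2 to 95.2 against 24.7 to 108. Class I presentation genes, which serve CD8+ T cells, were called higher in 10 of 10, against the same 12.5%. H2-K1 measured 1317 to 1476 RPKM in batch 3 against 51.5 to 171, and H2-D1 1841 to 1994 against 37.9 to 184. B2m, the light chain of class I, was less far apart, at 3276 to 3767 against 1162 to 2716. The median fold of the batch 3 pair over the microglia-rich libraries was 5.22 for class I genes and 91.7 for the class II members.

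**Figure D3:**
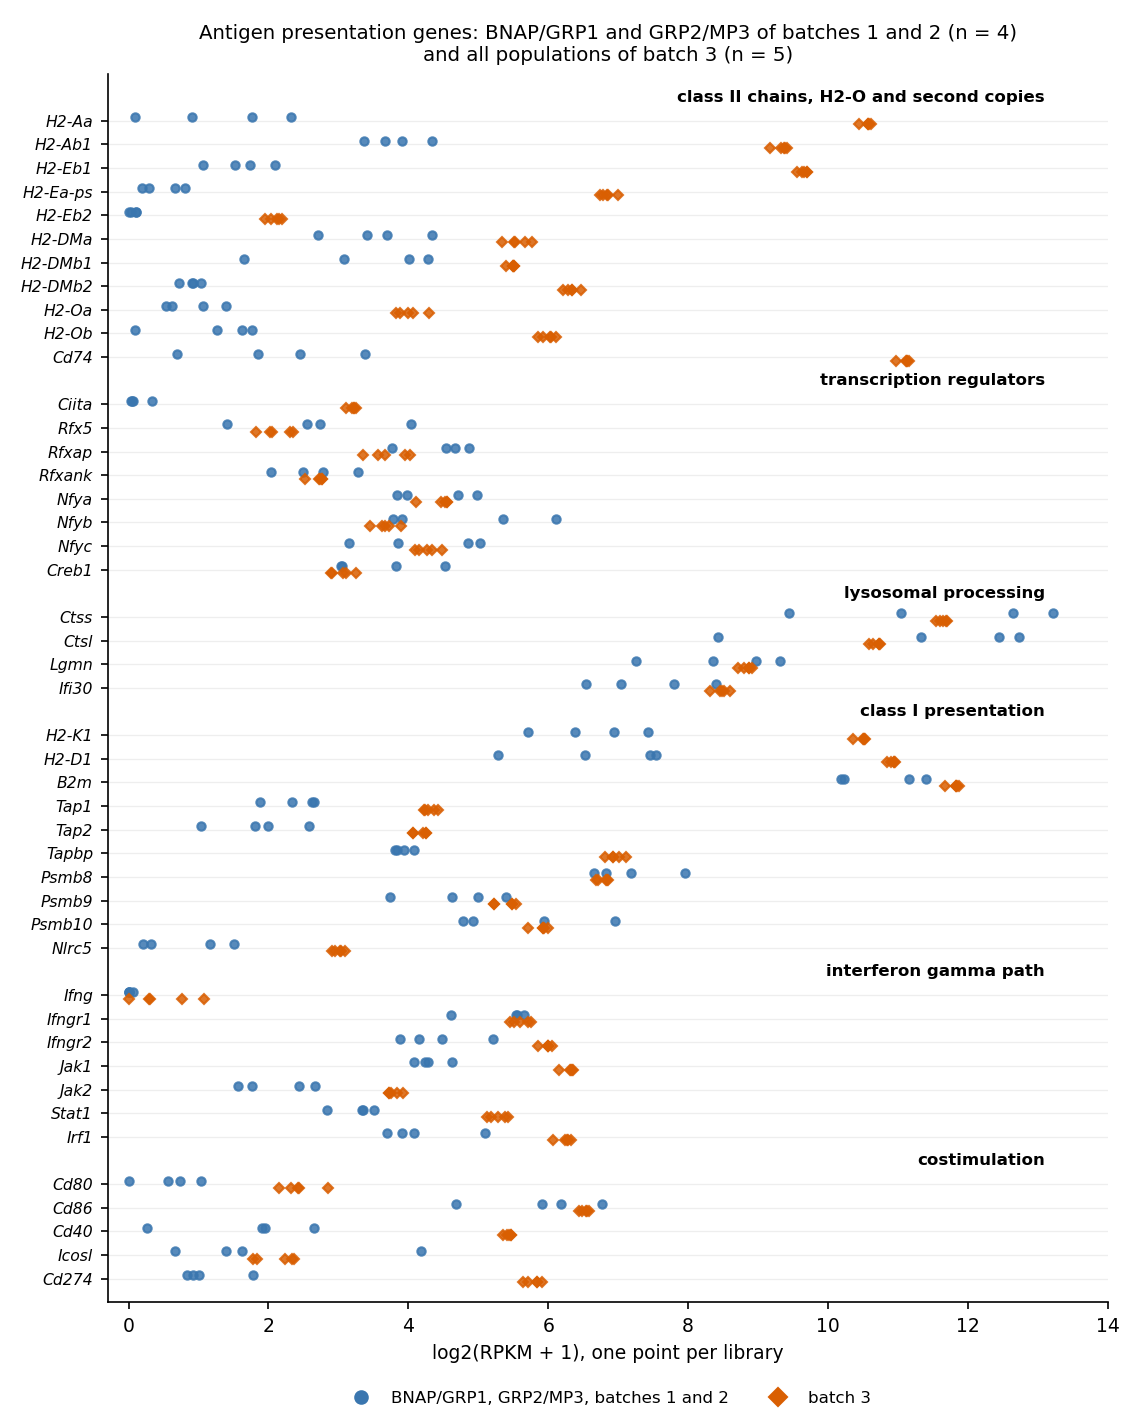
Each point is 1 library, with log2(RPKM + 1) on the horizontal axis and antigen presentation genes listed by role on the vertical axis; blue points are BNAP/GRP1 and GRP2/MP3 of batches 1 and 2, orange points the 5 libraries of batch 3. Class II chains separate the groups widely (H2-Aa at 1389 RPKM or more against at most 3.98), while Ctss, Rfx5 and Rfxank overlap.

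Whether macrophages describe batch 3 was checked against marker lists, and they did so only in part. The counts here stand against 12.5% of all genes called higher and 22.6% lower. Pan-myeloid genes were called higher than in the other batches in 8 of 8 cases. Against the microglia-rich libraries the batch 3 pair was above all 4 for 4 of 8 and below for 0. Of Csf1r, Aif1 and Cd68, 0 were above and 1 was below, namely Aif1, with means of 50.5 against 775 RPKM. Over all genes 17.9% were above and 28.1% below. Border-associated macrophage markers were called higher in 3 of 5 tested cases, with sums of 1673 to 2016 RPKM against 64.3 to 2485 in the microglia-rich libraries, but Pf4 alone made up 1583 to 1917 of that sum. Lyve1 measured 0.343 to 0.791 RPKM in batch 3, Cd163 0.112 to 0.319 and F13a1 1.57 to 2.45, and none of these was called higher. Alveolar macrophage markers were called higher in 10 of 10 cases, and their sum was 1338 to 1569 RPKM in batch 3 against 5.46 to 75.9. Chil3, a chitinase-like protein of alveolar macrophages, measured 558 to 658 RPKM, and Ear1 115 to 151. B cell markers were called higher in 5 of 5 cases, with sums of 404 to 437 RPKM against 16.2 to 42.6, and included Cd79a at 66.8 to 74.3 and Ms4a1 at 76.1 to 80.3. Of the dendritic cell list 3 of 6 tested genes were called higher, with sums of 66.1 to 76.6 against 10.5 to 37.3. These were Ccr7, at 31.9 to 40 RPKM, Itgax, at 28.2 to 31.5, and Cd209a, at 2.46 to 4.9, and the first is also carried by lymphocytes and the second by macrophages. The defining markers were low and not called higher, with Zbtb46 at 0.649 to 2.07 RPKM, Xcr1 at 0.404 to 0.598, Clec9a at 0.469 to 1.17 and Flt3, which was not tested, at 0.0732 to 0.461.

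Lung epithelium markers were called higher in 5 of 7 tested cases and lower in 1, against 12.5% and 22.6% of all genes. The club cell gene Scgb1a1, at 839 to 965 RPKM, made up most of their sum in batch 3. Sftpb and Sftpd were low there, with means of 2.23 and 2.78 RPKM, and Sftpa1 (mean 0.864) was not called. The gene called lower was Nkx2-1 (-1.05, limma adjusted p = 0.0466), with a batch 3 mean of 0.0549 RPKM. The sum of the list was 0.591 to 4.87 RPKM in the microglia-rich libraries. T cell markers were called higher in 2 of 4, and those of monocytes and neutrophils in 3 of 5. Homeostatic microglia markers were called higher in 0 of 10 and lower in 4, where 22.6% of all genes were lower, with sums of 111 to 130 against 455 to 2979, and Sall1 was at 0 in 2 and Slc2a5 in 3 of the 5 batch 3 libraries. Neural stem cell and oligodendrocyte progenitor markers were called lower in 4 of 4 and 5 of 5, and Gfap was at 0 in 4 of the 5. The class II transcripts of macrophages, B cells and any other cells in these libraries cannot be told apart.

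**Figure D4:**
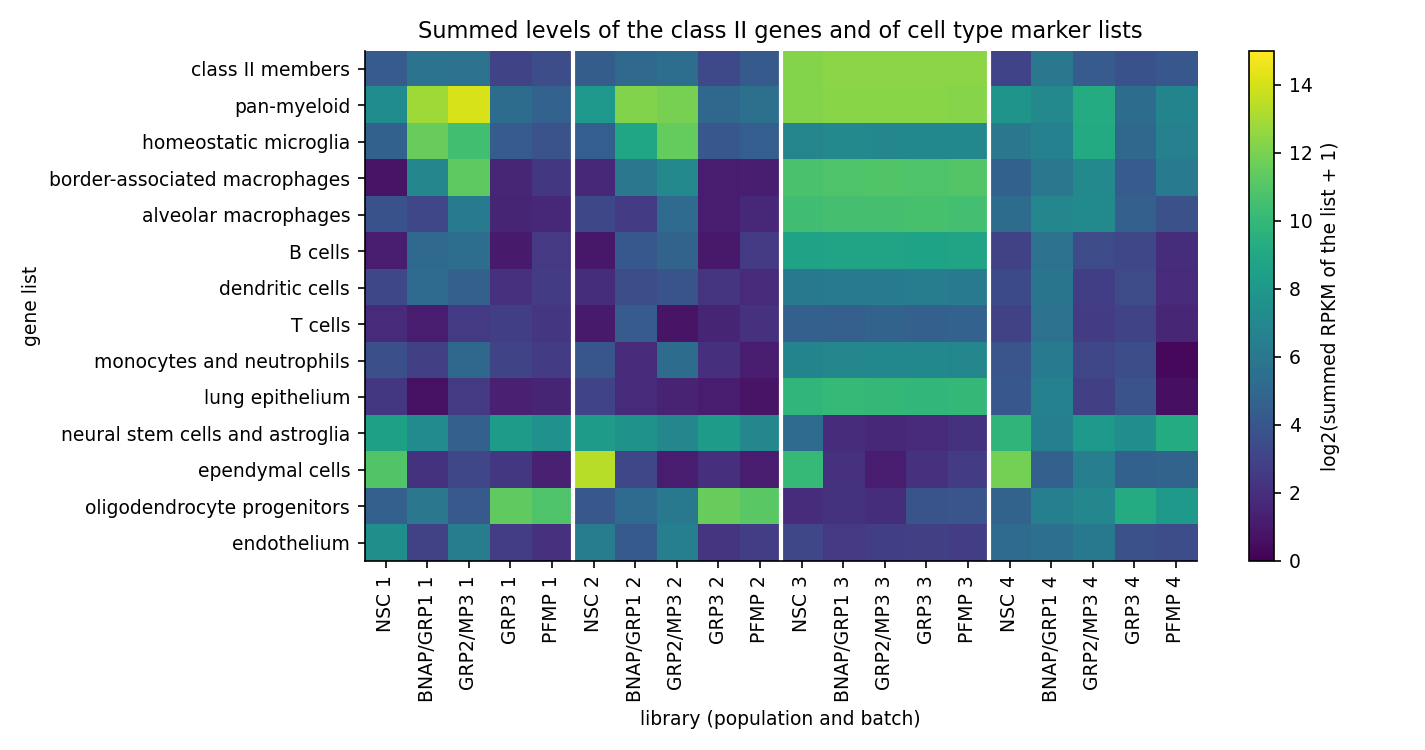
Each cell is the summed RPKM of 1 gene list in 1 library, on a log2(sum + 1) colour scale, with lists as horizontal bands, libraries along the horizontal axis and white lines between batches. In batch 3 the class II sum (4817 to 5402 RPKM) is high together with alveolar macrophage, B cell and lung epithelium markers, whereas the microglia-rich libraries of batches 1 and 2 have a high pan-myeloid sum (3900 to 17224 RPKM) with a class II sum of at most 52 RPKM.

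The genes whose pattern was most like that of the members were found by Pearson's r over the 20 libraries with the mean log2(RPKM + 1) of the 7 members. The first was Clec4d, a C-type lectin of myeloid cells, with r of 0.9923, at 1030 to 1180 RPKM in batch 3 and at most 4.12 elsewhere. Next came Cfb (0.9919), Tpcn2 (0.9892), Fpr2 (0.9881), Cd274 (0.9867), Mcemp1 (0.9864), Xdh (0.9862), Cpa3 (0.9853), Fpr1 (0.9841) and Cybb (0.9828). Over 27614 genes, 544 had r above 0.9 and 216 above 0.95. Since the libraries fall into batch 3 and the rest, any gene high in batch 3 alone gives such an r, and the values are a description with no test.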

How the data were processed

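Poly(A) RNA from sorted cells was amplified and sequenced by the authors on a NextSeq 500. The authors deposited gene-level RPKM values. FastQC 0.11.9, cutadapt 3.4, STAR 2.6.1, Salmon 1.9.0, DESeq2 1.26.0 and the build GRCm38 are named in the submitters' processing notes; the gene lengths and read totals behind the RPKM are not given in the sources used here. The values are not counts, so limma 3.58.1 (R 4.3.3) was fitted to log2(RPKM + 1) with a variance trend and Benjamini-Hochberg adjustment over the 27614 genes that reached 1 RPKM in at least 4 of the 20 libraries, and was tested on simulated data first. Progenitors were compared with NSC without a batch term, and batch 3 with the mean of the other batches with population as a covariate. A call means an adjusted p under 0.05.

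The members and gene lists were chosen with earlier results of these data known. Named were all 7 members, the H2-O genes and the second DM and E chains, at most the 3 list genes with the largest called differences, defining markers at 0, and the 10 genes most like the members. Some further list genes were named after their values were seen. The labels give each library a batch that its 5 populations share, so batches pair the populations. The median correlation of deviations from the population means was 0.337, 0.262, 0.769 and 0.581 within batches 1 to 4 (lowest 0.0341) and -0.254 between batches. Relative read numbers were recovered from ratios of values between libraries and cover counting only, since amplified reads are not independent molecules. H2-Ab1, H2-Eb1 and H2-DMb1 gave no whole-number series. Alternatives were a pseudocount of 0.1, other filters, median-of-ratios and other scaling, no variance trend, the replicate block, fewer batches or populations, and leaving out each library. Figures were drawn with matplotlib 3.10.9 in Python 3.11.15.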

Additional observations from a re-analysis of the deposited data

Results flagged for a closer look

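In each population the 4 libraries were examined for 1 value far from the other 3 on the log2(RPKM + 1) scale, by Dixon's 95% critical value. Of 35 groups (7 members in 5 populations) 14 stood out, and in all 14 the distant library was that of batch 3. For all 7 members every batch 3 library was already above every other library, so these flags repeat that gap and add no separate support. The 35 groups share libraries, and the share of flagged groups over all genes was not computed. For H2-Aa these were NSC 3 (1389 RPKM), GRP2/MP3 3 (1538), GRP3 3 (1524) and PFMP 3 (1561). For H2-Eb1 they were GRP2/MP3 3 (806 RPKM), GRP3 3 (794) and PFMP 3 (833), and for H2-Ab1 GRP3 3 (643 RPKM). For Cd74 they were NSC 3 (2010 RPKM), GRP2/MP3 3 (2240) and GRP3 3 (2213). For Ciita they were GRP2/MP3 3 (8.3 RPKM) and PFMP 3 (8.12), and for H2-DMb1 GRP3 3 (43.9 RPKM). No value of H2-DMa was as distant by this measure.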

How the results depend on the processing

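Leaving out each library in turn kept the count of members higher in batch 3, Ciita included, at 7. The count fell to 4 with only BNAP/GRP1 and GRP2/MP3 in the fit, where fewer libraries were compared, and H2-DMa, H2-DMb1 and Ciita missed the threshold. It was 6 with genes of a mean RPKM of at least 5 only, since Ciita was below that filter. Over its alternatives the difference of Cd74 ran from 8.49 to 10.6 and that of H2-Aa from 8.92 to 10.2 on the log2 scale. Against NSC, the replicate block left 0 of 7 members called in each progenitor, and it changed no call. Without 1 library at a time, the difference of Cd74 ran from -1.11 to 3.71 in BNAP/GRP1 and from -0.12 to 4.45 in GRP2/MP3, and reversed where a batch 3 library of the progenitor was left out. Of 28 member differences against NSC, 24 changed sign under at least 1 of the 17 or 18 alternatives run for each, 0 were called, and the lowest adjusted p by limma was 0.0674. Leaving out 1 batch 3 library unbalances these fits, which have no batch term, so the count of sign changes does not measure stability. With batch 3 left out of every population, the difference of Cd74 was 1.46 in BNAP/GRP1 and 2.45 in GRP2/MP3. The median class II to pan-myeloid ratio of batch 3 moved to 449% with Csf1r, Aif1 and Cd68 in the denominator, 58.4% with H2-Aa, H2-Ab1 and H2-Eb1 alone and 60.3% without Cd74. That of the microglia-rich libraries moved to 3.56% and 0.268% under the first and second of these, and was 0.733% with GRP2/MP3 4 added, an alternative chosen after seeing the data, as was the mean without BNAP/GRP1 4. The depth of BNAP/GRP1 4 limits its values.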
